A study of Mus musculus with 21 samples.

Results

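The transcripts described here are those of the cytosolic HSP70 and HSP90 chaperone system in mouse quadriceps muscle. They were chosen by symbol as 10 rows of a table of 53738 gene symbols: Hspa1a, Hspa1b, Hspa8, Hspa4, Hsph1, Dnaja1, Dnajb1, Hsp90aa1, Hsp90ab1 and Bag3. All 10 were present, all were above 0 in every library, and all passed the filter of a mean of at least 1 TPM (transcripts of a gene scaled by their length and by the total of the library) that left 11819 genes for testing. HSP70 proteins bind exposed stretches of unfolded proteins in a cycle driven by ATP. J-domain proteins deliver the client and trigger ATP hydrolysis, nucleotide exchange factors release it, and HSP90 receives a part of these clients for late folding steps. In contracting muscle, where heat, calcium and mechanical strain disturb protein structure, this system is known for the fast induction of its stress members by heat shock factors.

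Bulk RNA was sequenced from the quadriceps of male C57/Bl6 wild-type mice aged 22 to 26 weeks, with 3 libraries in each of 7 groups. Sedentary mice performed no exercise. Untrained mice had no training and trained mice had 12 weeks of voluntary wheel running, and both ran a treadmill test to exhaustion and were sacrificed directly (0 h) or after 6 h or 72 h. The table holds no trained mice without the treadmill bout, so in a comparison of a trained group with sedentary mice the training and the bout cannot be told apart. In bulk muscle, fewer cells of a type and less RNA per cell cannot be told apart either.

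A single library stood under 2 labels: untrained 0 h replicate 1 equalled trained 0 h replicate 1 over all 53738 symbols, against at most 10 identical symbols above 0 in any other pair of libraries. The table thus holds 20 distinct libraries. Values are given as deposited, and results that rest on a 0 h group are also given without that shared library (n = 2 a group). TPM carry no read counts, so the depth and the counting error of each library are unknown. Libraries summed to between 997304 and 997921 TPM, 11048 to 11890 symbols reached 1 TPM, and the mitochondrial genome held 37.7 to 48% of the TPM. That share followed the groups in part. It was 37.7 to 40.6% in the 0 h libraries and 45.7 to 48% in the trained 6 h and 72 h libraries. Values rescaled without the mitochondrial genome are given in the closing section. The labelled tissue was met by its markers, since 8 muscle fibre genes such as Ckm and Acta1 summed to 92674 to 124270 TPM in every library. A group's summary is its mean ± SD over 3 libraries.

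The stress-inducible HSP70 genes Hspa1a (GRCm39 chr17:35188166-35191132, minus strand) and Hspa1b (chr17:35175412-35178214, minus strand) are close copies that lie 9951 bases apart, each with a single exon. Their upstream sequences are shown because the values of the pair move together and because reads of the copies may be divided between them. The 250 bases before each start site are given 5′ to 3′ from the RefSeq windows of build GRCm38.p6, chr17:34972157-34972406 for Hspa1a and chr17:34959239-34959488 for Hspa1b, both on the minus strand. Capitals mark a match to GAANNTTC, 2 inverted GAA units of the heat shock element to which heat shock factors bind.
Hspa1a: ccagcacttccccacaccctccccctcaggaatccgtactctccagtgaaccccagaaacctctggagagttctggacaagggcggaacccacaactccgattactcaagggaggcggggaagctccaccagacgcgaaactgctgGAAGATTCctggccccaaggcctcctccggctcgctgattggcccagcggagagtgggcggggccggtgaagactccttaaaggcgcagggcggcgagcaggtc
Hspa1b: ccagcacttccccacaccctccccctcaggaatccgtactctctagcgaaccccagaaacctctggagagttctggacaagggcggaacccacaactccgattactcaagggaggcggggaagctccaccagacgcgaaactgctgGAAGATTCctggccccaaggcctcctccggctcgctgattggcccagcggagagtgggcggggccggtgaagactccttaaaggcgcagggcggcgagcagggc
Both copies held GAAGATTC with its first base 104 bases before the start site. Of the 250 bases, 247 were identical. The changes from Hspa1a to Hspa1b, counted from 1 at the 5′ end, were C44T, T47C and T249G. The coding sequences matched at 1918 of 1929 bases, or 99.4%, and 1873 of the 2769 words of 31 bases in the Hspa1b transcript (67.6%) also occurred in that of Hspa1a.

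Matches were also found in 60 bases upstream of Dnaja1, a J-domain partner of HSP70, and of Hsph1, which encodes a large HSP110. These stretches are shown because their genes rose with the inducible HSP70 pair. They are chr4:40722318-40722377 on the plus strand and chr5:149636357-149636416 on the minus strand of GRCm38.p6.
Dnaja1: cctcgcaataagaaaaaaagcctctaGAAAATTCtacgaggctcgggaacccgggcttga
Hsph1: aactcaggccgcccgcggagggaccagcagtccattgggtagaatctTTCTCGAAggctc
The Dnaja1 match GAAAATTC began 124 bases before the start site, in 1 of its 3 windows. In Hsph1 the capitals mark TTCTCGAA, a match to the mirror arrangement TTCNNGAA, 33 bases before the start site. Hsph1 had 2 windows, and in the other, which has its own start site, the same letters lay 54 bases before it. After the start the windows also held TTCTGGAA (at 37 and 16 bases) and GAAAGTTC (at 42 and 21 bases), which overlap each other. RefSeq windows were found for 7 of the 10 genes. Over all 32851 windows of 300 bases, 7.86% held GAANNTTC and 8.52% held TTCNNGAA; both motifs read the same on both strands, and 15.1% of windows held either. Bag3 had GAAGTTTC 43 bases after its start, and the windows of Dnajb1 and Hspa4 held no match, which says only that these letters are not in these windows.

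Immediately after the bout, the chaperone transcripts were high in both training states. Calls required a Benjamini-Hochberg adjusted p below 0.05 over 11819 genes in limma, together with a 1.5-fold difference in either direction. Against sedentary muscle, 8 of the 10 were called higher in untrained 0 h muscle, where 2.97% of all tested genes were, and 9 of the 10 in trained 0 h muscle, where 3.39% were. The median log2 fold change of the 10 was 2.27 and 1.99, next to 0.10 and 0.13 over all tested genes. Without the shared library the counts were again 8 and 9, beside 295 and 367 of 11819 tested genes. Both comparisons use the same sedentary libraries. Summed over the 10 genes, the level was 1099 ± 162 TPM in sedentary, 2301 ± 117 TPM in untrained 0 h and 2386 ± 337 TPM in trained 0 h muscle (SD, n = 3).

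At 6 h the training states parted. In untrained muscle 9 of the 10 genes were called higher than in sedentary muscle (3.53% of all tested genes), with a median log2 fold change of 2.25, next to 0.01 over all genes. In trained muscle 5 of the 10 were called higher (2.41% of all tested genes), with a median of 0.86, next to -0.01. Compared directly, 7 of the 10 had a lower 6 h level with training than without (1.46% of all tested genes), with a median of -1.38, next to -0.04. The summed level at 6 h was 2676 ± 604 TPM without training and 1513 ± 110 TPM with it (SD, n = 3). Most of each sum, here and at 0 h, came from Hspa8 and Hsp90ab1, which were not among the 7. At 6 h Hspa8 was at 1111 TPM without and 562 TPM with training, and Hsp90ab1 at 899 and 770 TPM. By 72 h limma called 0 of the 10 against sedentary muscle in either state, with 1 gene (Hsph1, untrained) and 0 genes at an unadjusted p below 0.05. The background was then 0.00846% of all tested genes for untrained and 0.169% for trained muscle, and the sums were 1121 ± 72.9 and 1149 ± 132 TPM.

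**Figure D1:**
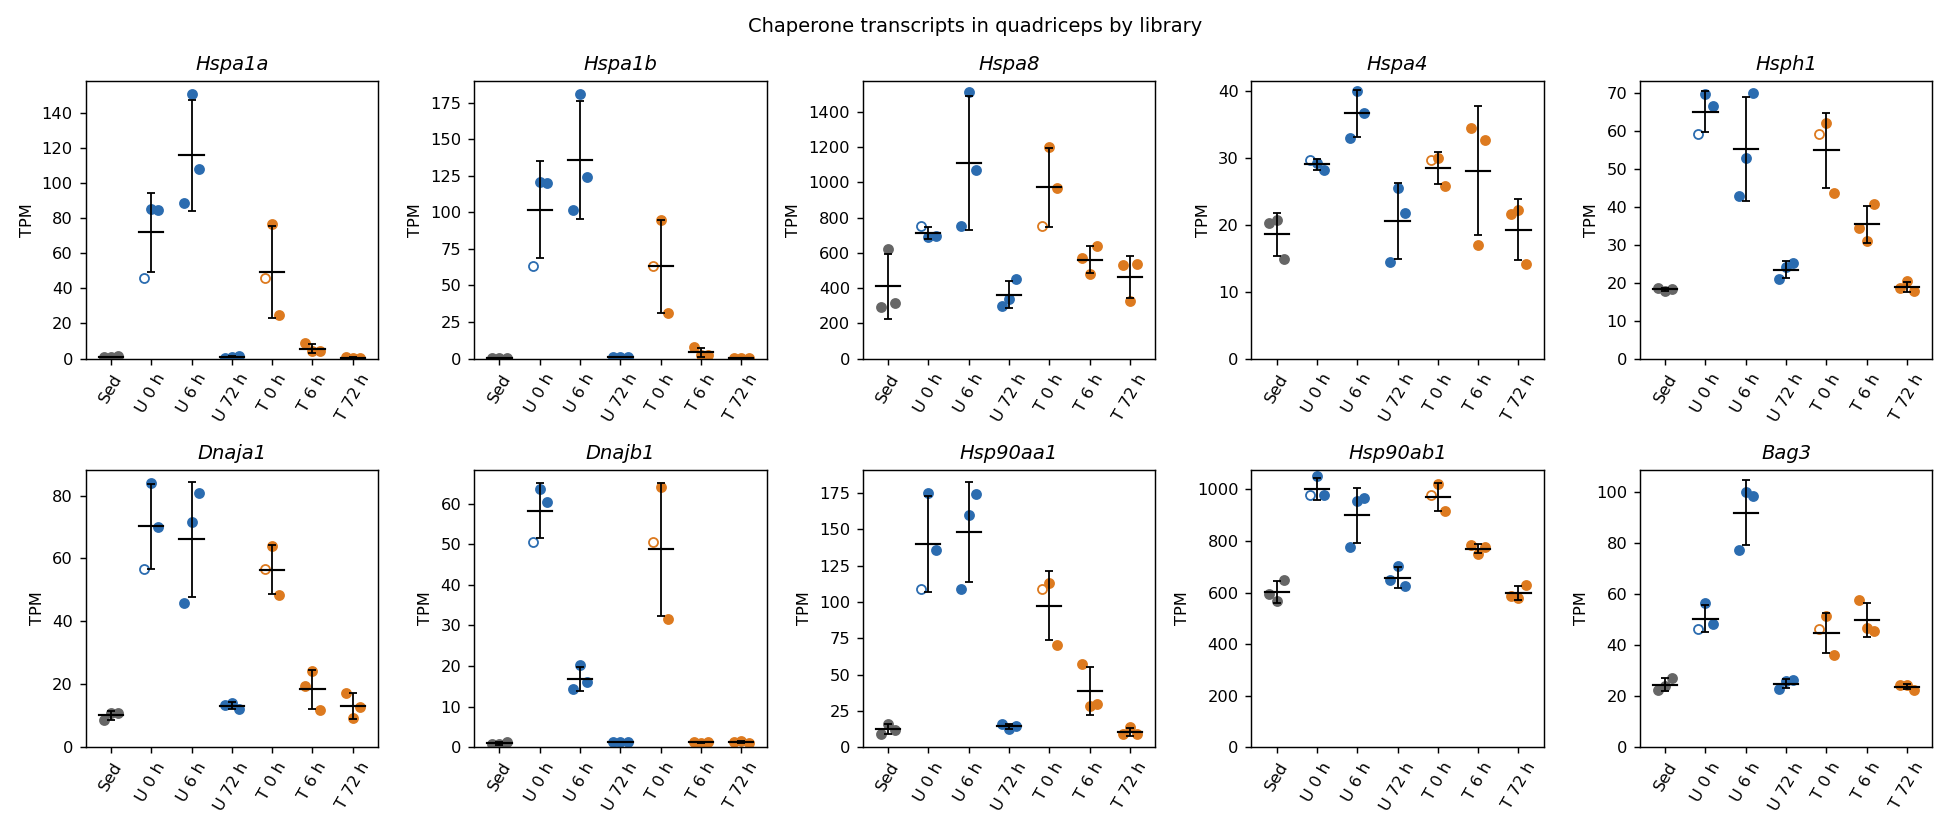
TPM of the 10 chaperone transcripts (y axis, linear, from 0) in every library by group (x axis; Sed, sedentary; U, untrained; T, trained). Points are libraries, the open point at 0 h is the library found under both labels, horizontal lines are means and bars are 1 SD (n = 3). Most genes were high at 0 h in both states and stayed high at 6 h in untrained muscle, while Dnajb1 at 6 h was at 14.3 to 20.2 TPM in untrained and 1 to 1.38 TPM in trained muscle.

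Hspa1a was near the floor at rest, with 0.725, 0.888 and 1.15 TPM in the sedentary libraries. The untrained 0 h libraries held 46, 85.4 and 85 TPM, and the trained 0 h libraries 46, 77.1 and 25 TPM. All exercised libraries at 0 h thus lay far above all sedentary ones, and the trained group spanned a wider range. At 6 h the untrained libraries held 89, 151 and 108 TPM, and the trained libraries 8.73, 4.03 and 4.14 TPM. The groups did not overlap, and each trained library was still above each sedentary library. At 72 h the values were 0.564, 1.1 and 1.2 TPM in untrained and 0.709, 0.517 and 0.418 TPM in trained muscle, close to the sedentary range. On the log2(TPM + 0.5) scale, which understates the change of low genes, the difference from sedentary was 5.63 ± 0.37 (SE) at untrained 0 h (adjusted p = 1.1e-07) and 6.33 ± 0.37 at untrained 6 h (adjusted p = 4.08e-08), by limma. In trained muscle it was 5.0 ± 0.37 at 0 h (adjusted p = 2.52e-07) and 2.04 ± 0.37 at 6 h (adjusted p = 0.00226). As ratios of group means, trained 6 h muscle was at 6.12 times and untrained 6 h muscle at 126 times the sedentary level.

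Hspa1b, the other copy, took the same course at somewhat higher peaks. It was at 0.501, 0.608 and 0.659 TPM in sedentary muscle. At 0 h it reached 63.3, 121 and 120 TPM in untrained and 63.3, 95.1 and 31.4 TPM in trained muscle. Values at 6 h were 102, 181 and 124 TPM without training and 7.92, 2.51 and 2.25 TPM with it. Trained replicate 1 was the highest of its group for both copies, and no trained library came near the untrained ones. At 72 h all 6 libraries lay between 0.427 and 0.854 TPM. The log2 difference from sedentary was 6.93 ± 0.41 (adjusted p = 4.08e-08, limma) in untrained and 1.92 ± 0.41 (adjusted p = 0.00671) in trained muscle at 6 h. With only the compared groups in the model, the trained 6 h call was lost (adjusted p = 0.0905).

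Hspa1a made up 59.1 to 63.6% of the pair's TPM in sedentary libraries, 41.4 to 42.1% at untrained 0 h, 42.1 to 44.8% at trained 0 h and 45.4 to 46.6% at untrained 6 h. In trained 6 h muscle, with 9.86 ± 5.89 TPM for the pair, it was 52.4 to 64.8%. At 72 h it was 43.8 to 60.3% in untrained and 44.9 to 54% in trained libraries, with 1.74 ± 0.394 and 1.1 ± 0.237 TPM for the pair, ranges that overlap those at untrained 6 h. How much of these differences comes from the division of shared reads was not tested. With the copies summed before the test, the log2 difference between trained and untrained muscle at 6 h was -4.71 (adjusted p = 7.2e-06, limma). A further limit applies to Hspa1a. The long non-coding gene Gm20481 lies on the opposite strand at chr17:35188888-35191112 of GRCm39, and all 564 exonic bases of its 2 exons lie inside the Hspa1a exon. The TruSeq RNA v2 kit does not mark strand, so reads over these 564 bases cannot be assigned by strand to either gene. Gm20481 was listed at 254 ± 74.6 TPM at untrained 0 h, 378 ± 123 TPM at untrained 6 h and 17 ± 9.84 TPM at trained 6 h, and held 67.2 to 78.8% of the TPM of both in every library.

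**Figure D2:**
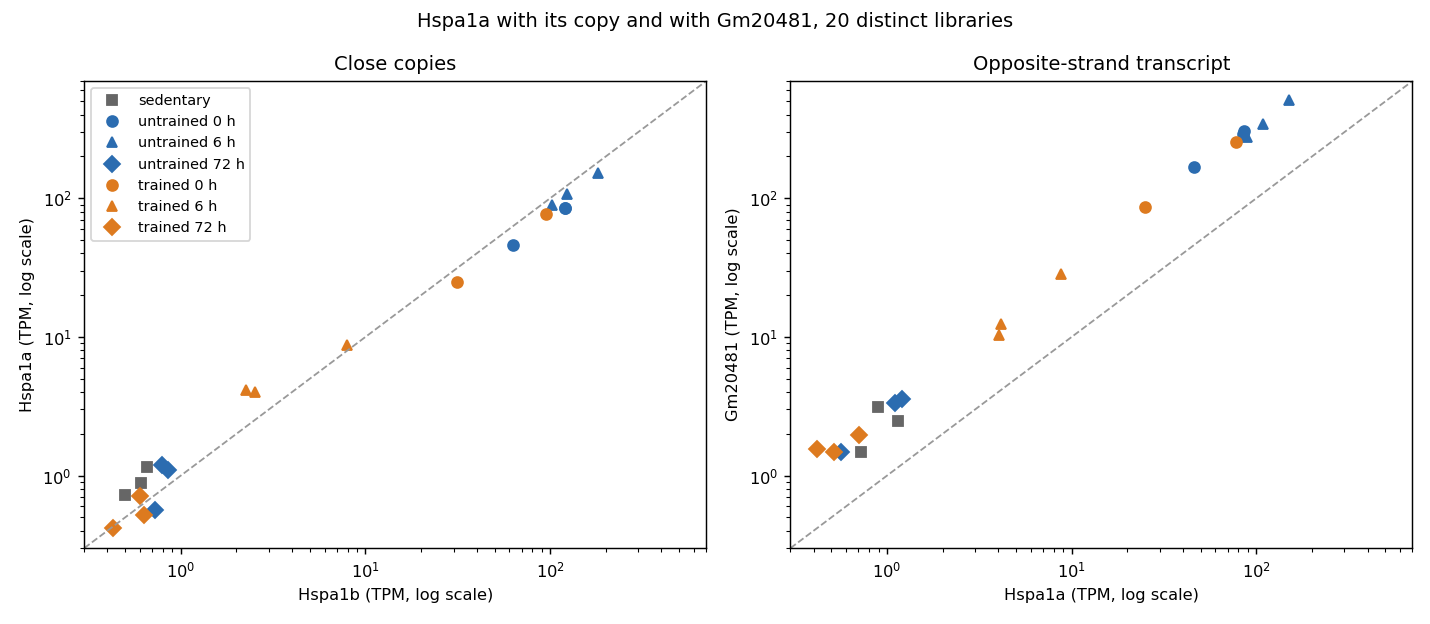
TPM of Hspa1a against Hspa1b (left) and of Gm20481 against Hspa1a (right), on log axes, for the 20 distinct libraries, with the shared 0 h library drawn once under untrained 0 h. Dashed lines mark equal levels. Libraries of sedentary and 72 h muscle cluster near 1 TPM, the 3 trained 6 h libraries lie between them and the 0 h libraries, and Gm20481 keeps above Hspa1a throughout.

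Hspa8 encodes the constitutive HSP70 of the cytosol (chr9:40711630-40731039, GRCm39), and was abundant at rest. Sedentary libraries held 292, 621 and 317 TPM, with replicate 2 far above the others. Untrained muscle had 751, 688 and 697 TPM at 0 h and 751, 1511 and 1072 TPM at 6 h. Trained muscle had 751, 1198 and 966 TPM at 0 h and 568, 481 and 638 TPM at 6 h. Every 0 h and untrained 6 h library was above every sedentary library, whereas trained 6 h libraries overlapped them. The rise was called at untrained 6 h (log2 1.47 ± 0.30, adjusted p = 0.00438) and trained 0 h (1.30 ± 0.30, adjusted p = 0.0115), but not at untrained 0 h (0.88 ± 0.30, adjusted p = 0.0827), all by limma. Without sedentary replicate 2 the untrained 0 h difference was 1.22 (adjusted p = 0.0202). The trained 0 h call was lost without sedentary replicate 1 (adjusted p = 0.0656) or trained 0 h replicate 2 (0.0542). With only the compared groups in the model, both calls were lost, at adjusted p = 0.156 for untrained 6 h and 0.129 for trained 0 h. At 72 h Hspa8 was at 363 ± 78.3 and 463 ± 119 TPM in untrained and trained muscle.

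The HSP110 proteins, distant relatives of HSP70, act as its nucleotide exchange factors, and their transcripts differed in response. Hsph1 (chr5:149537636-149560156) was at 18.5, 17.9 and 18.2 TPM in sedentary muscle. It stood at 59, 69.5 and 66.5 TPM in untrained and 59, 61.9 and 43.6 TPM in trained muscle at 0 h. The 6 h values were 42.8, 52.8 and 69.9 TPM in untrained and 34.3, 30.9 and 40.6 TPM in trained muscle. All of these lay above the sedentary range, and the trained 6 h libraries lay below the untrained ones by a narrow gap. The log2 differences from sedentary were 1.80 ± 0.16 at untrained 0 h (adjusted p = 1.82e-06, limma), 1.55 ± 0.16 at trained 0 h (7.65e-06), 1.54 ± 0.16 at untrained 6 h (9.4e-06) and 0.93 ± 0.16 at trained 6 h (0.00143). Hspa4 (chr11:53150641-53191531) moved less. Its sedentary values were 20.3, 20.8 and 14.9 TPM, and its untrained 6 h values 33, 40.1 and 36.8 TPM. That difference was called (log2 0.97 ± 0.25, adjusted p = 0.0211, limma), but not without sedentary replicate 3 (adjusted p = 0.0866), untrained 6 h replicate 2 (0.0777) or replicate 3 (0.0608). At 0 h Hspa4 held 28.2 to 29.8 TPM in untrained and 25.8 to 30 TPM in trained muscle, above every sedentary library but not called (adjusted p = 0.127 and 0.129). In trained 6 h muscle it was at 34.5, 17 and 32.7 TPM, and without the low replicate 2 the difference from sedentary was 0.85 (adjusted p = 0.0261).

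The J-domain genes differed from each other in time course. Dnajb1 (chr8:84334811-84339820) encodes the HSP40 that activates HSP70 in disaggregation and refolding. It rested at 0.753, 0.761 and 1.32 TPM. At 0 h it was at 50.5, 63.5 and 60.4 TPM in untrained and 50.5, 64.1 and 31.5 TPM in trained muscle, and the groups overlapped. At 6 h untrained libraries still held 14.3, 20.2 and 16 TPM, while trained libraries were at 1.38, 1 and 1.21 TPM, inside or just above the sedentary range. In trained muscle 0.521% of the mean 0 h rise was left at 6 h, in untrained muscle 27.8% (0.531 and 26.1% without the shared library). The trained share was 0.32, 0.329 and 0.912% without sedentary replicate 1, 2 and 3 and 0.33% without trained 6 h replicate 1. The log2 difference from sedentary was 5.36 ± 0.21 at untrained 0 h (adjusted p = 2.96e-10, limma), 3.59 ± 0.21 at untrained 6 h (4.08e-08), 5.05 ± 0.21 at trained 0 h (7.31e-10) and 0.25 ± 0.21 at trained 6 h (0.517).

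Dnaja1 (chr4:40722056-40737149), the other J-domain member, acts with HSP70 in folding and protein import. Sedentary values were 8.53, 10.9 and 10.8 TPM. Untrained values were 56.7, 83.9 and 70.1 TPM at 0 h and 45.7, 71.7 and 80.9 TPM at 6 h, and these groups overlapped. Trained values were 56.7, 64 and 48.3 TPM at 0 h and 19.5, 24.2 and 11.7 TPM at 6 h. Every trained 6 h library was above every sedentary library, but the difference missed the threshold (log2 0.79 ± 0.26, adjusted p = 0.0712, limma). It was called without trained 6 h replicate 3, the lowest (log2 1.08, adjusted p = 0.0191), and with median-of-ratios scaling (adjusted p = 0.0454). Part of the Dnaja1 locus is shared with Smu1 on the opposite strand, and reads of an overlap cannot be assigned without strand. The same limit applies to Hsp90ab1, whose locus overlaps Slc35b2 on the opposite strand. The loci of Hspa8, Hsph1, Hsp90aa1 and Bag3 overlap other annotated transcripts, most of them non-coding.

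The HSP90 isoforms responded very unequally. Hsp90aa1 (chr12:110656842-110669166), the inducible isoform, had 9.13, 16.2 and 12 TPM in sedentary muscle. It rose to 109, 175 and 136 TPM at untrained 0 h and 109, 113 and 70.1 TPM at trained 0 h. At 6 h it was at 109, 160 and 174 TPM in untrained and 57.5, 28.1 and 30 TPM in trained muscle. All trained 6 h libraries were above the sedentary and below the untrained 6 h range, with replicate 1 the highest. The log2 differences from sedentary were 3.45 ± 0.29 (adjusted p = 1.48e-06, limma) and 3.52 ± 0.29 (1.09e-06) at untrained 0 h and 6 h. The corresponding trained differences were 2.93 ± 0.29 (7.4e-06) and 1.55 ± 0.29 (0.00316); the last was not called with only the compared groups in the model (adjusted p = 0.0802).

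Hsp90ab1 (chr17:45878552-45891949), the constitutive isoform, began far higher, at 593, 567 and 649 TPM in sedentary muscle. It reached 979, 1052 and 978 TPM at untrained 0 h and 979, 1020 and 915 TPM at trained 0 h. The values at 6 h were 776, 955 and 967 TPM in untrained and 783, 751 and 775 TPM in trained muscle. These changes were small in fold but tight, and no library at 0 h or 6 h overlapped the sedentary range. The log2 difference was 0.74 ± 0.08 at untrained 0 h (adjusted p = 1.46e-05, limma) and 0.69 ± 0.08 at trained 0 h (2.71e-05). At untrained 6 h it was 0.57 ± 0.08 (adjusted p = 0.000191), short of the fold threshold, and past it without untrained 6 h replicate 1 (0.67) or sedentary replicate 3 (0.63). Rescaling lowered the 0 h values under that threshold, as given in the closing section. Hsp90aa1 made up 2.03 ± 0.657% of the TPM of both isoforms in sedentary muscle, 12.2 ± 2.11% at untrained 0 h, 9.05 ± 1.67% at trained 0 h, 14 ± 1.51% at untrained 6 h and 4.73 ± 1.83% at trained 6 h (SD, n = 3). TPM are per transcript length, so these shares compare levels between the genes.

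Bag3 (chr7:128125283-128148705) encodes the co-chaperone that links HSP70 to small heat shock proteins and to the selective autophagy of damaged filamin in muscle. Of the 10 genes, it alone was called higher at 6 h than at 0 h, and in untrained muscle. From 22.2, 23.8 and 27.1 TPM in sedentary muscle it went to 46.4, 56.4 and 48 TPM at untrained 0 h, and to 77.1, 99.9 and 98.1 TPM at untrained 6 h. In trained muscle it was at 46.4, 51.2 and 35.9 TPM at 0 h and 57.5, 46.8 and 45.3 TPM at 6 h. Untrained 6 h libraries were above all others, and the trained 0 h and 6 h libraries overlapped. The log2 difference from sedentary was 1.03 ± 0.14 (adjusted p = 0.000115, limma) and 1.89 ± 0.14 (2.19e-07) at 0 h and 6 h without training. With training it was 0.84 ± 0.14 (0.000685) and 1.01 ± 0.14 (0.000251). The trained 0 h call was lost with only the compared groups in the model (adjusted p = 0.0636).

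Trained muscle was then compared with untrained muscle at each time. Without trained mice at rest, a lasting effect of training cannot be told apart here from an altered response to the bout. The paper reports enhanced performance of trained mice in the treadmill test, so the bouts themselves may have differed between the states. At 0 h limma called 0 of the 10 genes and 0% of all tested genes, and 0 of the 10 had an unadjusted p below 0.05. The values lay between -0.76 ± 0.41 (Hspa1b) and 0.42 ± 0.30 (Hspa8), both groups contained the shared library, and without it the range was -1.13 ± 0.49 to 0.64 ± 0.37. This does not show equal levels. At 72 h 0 of the 10 were called (0.245% of all tested genes), and 0 had an unadjusted p below 0.05, with values from -0.46 ± 0.29 (Hsp90aa1) to 0.34 ± 0.30 (Hspa8).

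The 7 genes that were lower in trained muscle at 6 h covered all roles of the system. They were the inducible HSP70 copies Hspa1b (log2 -5.01 ± 0.41, adjusted p = 4.87e-06, limma) and Hspa1a (-4.29 ± 0.37, 7.6e-06), the J-domain genes Dnajb1 (-3.35 ± 0.21, 3.83e-07) and Dnaja1 (-1.83 ± 0.26, 0.000789), Hsp90aa1 (-1.97 ± 0.29, 0.00104), Bag3 (-0.87 ± 0.14, 0.00143) and Hsph1 (-0.62 ± 0.16, 0.0351). In each of the 7 the groups did not overlap, but the calls rest on the same values, so this is no further support. The share of all tested genes without overlap is not given here. The Hsph1 call was the least firm. It was lost without untrained 6 h replicate 2 (adjusted p = 0.0929) or 3 (0.132), trained 6 h replicate 1 (0.0966) or 2 (0.12), and also under other scalings or without the filter on low values. Of the genes not called, Hspa8 was at -0.93 ± 0.30 (adjusted p = 0.09), with no overlap, and was called without untrained 6 h replicate 1 (-1.19, adjusted p = 0.0292). Hspa4 (-0.44 ± 0.25, 0.369) and Hsp90ab1 (-0.22 ± 0.08, 0.142) overlapped between the states. When only the 2 groups entered the model, 3 of the 10 were called, namely Hspa1a, Hspa1b and Dnajb1, and adjusted p was 0.167 for Dnaja1, 0.151 for Hsp90aa1, 0.151 for Bag3 and 0.32 for Hsph1.

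**Figure D3:**
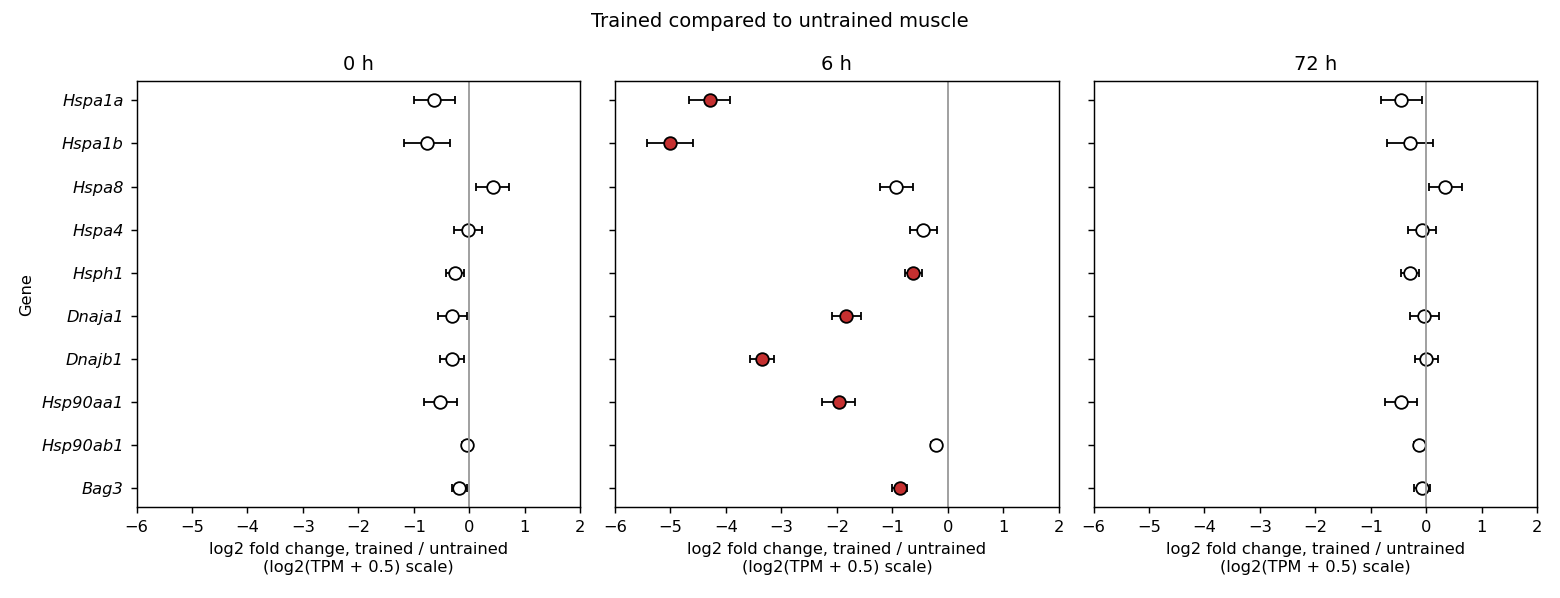
Log2 fold change between trained and untrained muscle (x axis, log2(TPM + 0.5) scale, left of 0 is lower in trained) for each chaperone gene (y axis), with a panel for each time after the bout. Points are limma estimates, bars are 1 SE, and filled points passed both thresholds. The 7 filled points are all at 6 h, from -5.01 (Hspa1b) to -0.62 (Hsph1).

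The change between 0 h and 6 h was then followed within each state. In untrained muscle only Dnajb1 was called lower (log2 -1.77 ± 0.21, adjusted p = 4.62e-05, limma; 2.6% of all tested genes) and only Bag3 higher (0.86 ± 0.14, 0.000577; 2.04% of all tested genes), of the 10. In trained muscle 6 of the 10 were lower (4.94% of all tested genes): Dnajb1 (-4.81 ± 0.21), Hspa1b (-3.82 ± 0.41), Hspa1a (-2.96 ± 0.37), Dnaja1 (-1.64 ± 0.26), Hsp90aa1 (-1.37 ± 0.29) and Hsph1 (-0.62 ± 0.16). Hsph1 fell under the fold threshold without the shared library, at -0.56, and likewise without trained 0 h replicate 2 (-0.53) or trained 6 h replicate 2 (-0.53), which left 5. The difference between these changes was tested as an interaction. It was called for 3 of the 10 (0.533% of all tested genes), and again for 3 without the shared library (33 of 11819 tested genes). As deposited, these were Hspa1b (-4.25 ± 0.58, adjusted p = 0.00388, limma), Hspa1a (-3.66 ± 0.52, 0.00543) and Dnajb1 (-3.04 ± 0.29, 0.000231). For Dnaja1 (-1.53 ± 0.37, adjusted p = 0.0795), Bag3 (-0.69 ± 0.19, 0.141) and Hsp90aa1 (-1.45 ± 0.42, 0.164) the test was not passed. Without untrained 6 h replicate 1 it was passed by Dnaja1 (0.0217) and Bag3 (0.0351), without trained 0 h replicate 3 by Bag3 (0.0475), and without trained 6 h replicate 1 by Hsp90aa1 (0.0412). With only the 4 groups of this test in the model, Dnajb1 alone was called.

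Of its mean rise at 0 h, untrained muscle at 6 h retained 161% for Hspa1a, 134% for Hspa1b, 232% for Hspa8, 106% for Hsp90aa1, 93.1% for Dnaja1, 78.9% for Hsph1, 172% for Hspa4, 74.1% for Hsp90ab1 and 260% for Bag3. Trained muscle retained 9.72%, 5.8%, 27.1%, 30.7%, 18.1%, 46.6%, 95.5%, 45.3% and 127% of these rises in the same order. Without the shared library the untrained values were 136, 112, 248, 94.5, 83.7, 74.2, 178, 72 and 242% and the trained values 9.4, 5.8, 22.6, 33, 18.1, 49.4, 102, 45.8 and 133%. Leaving out each sedentary, 0 h or 6 h library in turn, a check chosen after the data were seen, moved 4 of these 18 shares by over 1.5 times, all in trained muscle. Without trained 6 h replicate 1 the shares were 2.85% for Hspa1b, 62.8% for Hspa4 and 19.6% for Hsp90aa1, and without trained 6 h replicate 2 they were 152% for Hspa4 and 11.9% for Dnaja1. By the means, Bag3 stood above its 0 h rise in both states with and without the shared library, and Hspa4 did so without it. Dnajb1 had the least left in both states. From 6 h to 72 h, 9 of the 10 fell in untrained muscle (2.83% of all tested genes) and 5 in trained muscle (2.52%), namely Hspa1a, Hspa1b, Hsph1, Hsp90aa1 and Bag3. In untrained muscle the gene not called was Hsp90ab1 (log2 -0.44 ± 0.08, adjusted p = 0.00193, limma), which missed the fold threshold. The fall of Hspa4 (-0.85 ± 0.25, 0.0435) was not called without the shared library (0.0636), nor without untrained 6 h replicate 1 (0.0536), 2 (0.118) or 3 (0.101) or untrained 72 h replicate 1 (0.197) or 3 (0.0764).

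The companion genes of the system were described from lists of 74 genes, of which 71 were tested. Against sedentary muscle, 10 of the 71 were called higher at untrained 0 h (2.97% of all tested genes), 13 at untrained 6 h (3.53%), 7 at trained 0 h (3.39%) and 3 at trained 6 h (2.41%). The last count is near that background. Between the training states at 6 h, 6 were called, each of them lower with training (1.46%). The same backgrounds apply to the counts by list. The medians of the 71 were 0.26, 0.16, 0.23 and 0.09 in that order, next to 0.10, 0.01, 0.13 and -0.01 over all tested genes. Without the shared library the counts were 8, 12, 6 and 3, beside 295, 400, 367 and 286 of 11819 tested genes.

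Of 5 tested partners of BAG3 in autophagy, 3 were called higher in untrained 6 h muscle, 2 in trained 6 h muscle and, by limma, 0 at 0 h in either state, where 3 (untrained) and 1 (trained) had an unadjusted p below 0.05. The list medians were 0.28 and 0.29 at untrained and trained 0 h, and 0.70 and 0.23 at 6 h. Flnc, the filamin C of the Z-disc, was at 42.1 ± 1.45 TPM in sedentary muscle, 51.5 ± 7.72 at untrained 0 h and 266 ± 35.3 at untrained 6 h. In trained 6 h muscle its libraries held 122, 75 and 63.8 TPM, all above sedentary and below untrained 6 h (trained against untrained -1.65 ± 0.19, adjusted p = 0.000125, limma). Hspb8, the small heat shock protein that binds BAG3, was at 147 ± 6.9 TPM in sedentary, 437 ± 89.1 TPM in untrained 6 h and 229 ± 31.1 TPM in trained 6 h muscle (-0.92 ± 0.13, 0.000565). Sqstm1, the autophagy receptor p62, was called at untrained 6 h (0.70 ± 0.18, adjusted p = 0.0189, limma). Synpo2, of the same list, went the other way in trained 6 h muscle, at 39 ± 2.68 TPM against 49.8 ± 3.48 TPM in sedentary muscle. That difference passed the adjusted p but not the fold threshold (-0.35 ± 0.08, adjusted p = 0.0118, limma).

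Among 11 tested J-domain genes outside the system, limma called Dnajb4 at 0 h in both states. It was at 13.2 ± 1.23 TPM in sedentary, 30.2 ± 2.58 TPM in untrained 0 h (log2 1.16 ± 0.15, adjusted p = 0.000125) and 30 ± 5.48 TPM in trained 0 h muscle (1.14 ± 0.15, 0.000142). Dnajb4 and Dnaja4 were called at untrained 6 h, with log2 differences from sedentary of 1.88 ± 0.15 (adjusted p = 9.39e-07, limma) and 1.78 ± 0.14 (7.84e-07), as was Dnajb2 (0.66 ± 0.10, 0.000361). Dnaja4 stood at 64.2, 63.1 and 66.3 TPM in untrained and 37.9, 23.9 and 22 TPM in trained 6 h libraries. In trained 6 h muscle limma called 0 of the 11 against sedentary, with 6 at an unadjusted p below 0.05. Dnaja4 (0.54 ± 0.14, adjusted p = 0.0237, limma) and Dnajb2 (0.41 ± 0.10, 0.0127) passed the adjusted p there and missed only the fold threshold. Dnajb4 and Dnaja4 were lower in trained than in untrained 6 h muscle (-1.48 ± 0.15, 4.68e-05, and -1.23 ± 0.14, 0.000108).

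Of 20 HSP90 co-chaperones, 4 were higher at untrained 0 h (Ahsa2, Fkbp5, Stip1 and Ptges3), 3 at untrained 6 h, 3 at trained 0 h and 1 at trained 6 h. Stip1, which passes clients from HSP70 to HSP90, was at 25.9 ± 1.15 TPM in sedentary, 46.5 ± 1.84 TPM in untrained 0 h and 49.1 ± 7.47 TPM in untrained 6 h muscle. Ahsa2, of the family that stimulates the HSP90 ATPase, was lower with training at 6 h (-0.69 ± 0.16, adjusted p = 0.0179, limma). Fkbp5, a glucocorticoid-responsive immunophilin, went the other way in value. Its 6 h level was 10.9 ± 1.62 TPM without and 16.1 ± 4.6 TPM with training, without a call between the states (0.52 ± 0.20, adjusted p = 0.162), and was the co-chaperone called at trained 6 h (1.82 ± 0.20, 4.93e-05).

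Of the mitochondrial chaperones, Hspe1 was higher at 0 h in both states and at 6 h in untrained muscle (1.08 ± 0.11, adjusted p = 6.63e-06, limma). It was lower with training at 6 h (-0.59 ± 0.11, 0.00379). Hspd1, its partner, was called at untrained 0 h (0.64 ± 0.08, 3.27e-05). At trained 0 h Hspd1 missed only the fold threshold (0.54 ± 0.08, 0.000183). In the endoplasmic reticulum, 2 of 5 genes were called at untrained 0 h and at untrained 6 h (1 without the shared library), and 1 at trained 0 h. Hspa5, the HSP70 of that compartment, had 0.85 ± 0.14 (0.000805) and 0.87 ± 0.14 (0.000706) in untrained muscle, and 0.73 ± 0.14 (0.0029) at trained 0 h. Of the other cytosolic HSP70 and HSP110 genes, Hspa4l was called at 0 h in untrained (1.11 ± 0.26, 0.0163) and trained muscle (1.04 ± 0.26, 0.0215), though in neither without the shared library. Hspa1l was called at untrained 6 h (0.59 ± 0.11, 0.00167). Limma called 0 of 5 tested nucleotide exchange factors and 0 of 8 subunits of the TRiC chaperonin in untrained 0 h muscle. It also called 0 of 4 genes listed with the heat shock factors (Hsf1, Hsf2, Hsf4 and Hsbp1, which is not a factor itself). In these lists 3, 7 and 1 had an unadjusted p below 0.05. Several TRiC subunits passed the adjusted p at untrained 0 h and missed only the fold threshold. Examples were Cct6a (0.49 ± 0.08, adjusted p = 0.00102, limma) and Cct3 (0.51 ± 0.10, 0.00302). In untrained 6 h muscle 0 of each list were called as well, with 1, 5 and 1 at an unadjusted p below 0.05. At untrained 0 h the median log2 difference was 0.46 for TRiC and 0.48 for the chaperones of the endoplasmic reticulum, beside 0.10 over all tested genes. The trained 0 h medians were 0.38 and 0.47, beside 0.13. Hsf1, the main heat shock factor, was at 13.8 ± 1.93 TPM in sedentary, 16.5 ± 1 TPM in untrained 0 h and 15.6 ± 1.58 TPM in untrained 6 h muscle. Hsf2 was at 6.4 ± 0.527 TPM in sedentary and 8.94 ± 1.14 TPM in untrained 6 h muscle. That difference passed the adjusted p but not the fold threshold (0.45 ± 0.09, adjusted p = 0.00326, limma).

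**Figure D4:**
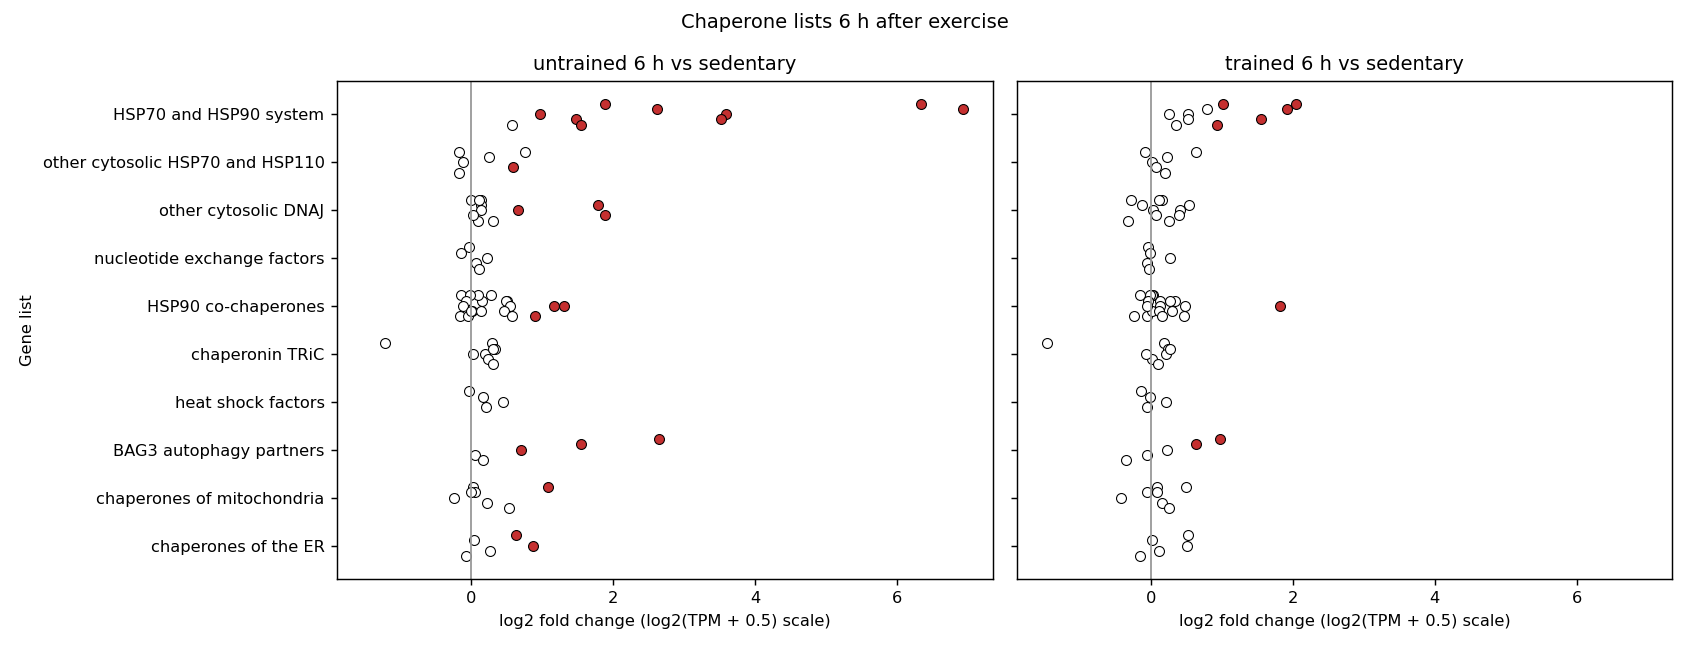
Log2 fold change from sedentary muscle 6 h after the bout (x axis, log2(TPM + 0.5) scale) for the tested genes of each list (y axis), in untrained (left) and trained (right) muscle. Each point is a gene, filled where it passed both thresholds. In the top row 9 of the 10 chaperone genes are filled on the left and 5 on the right; among the other lists 13 and 3 points are filled.

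Markers of other cells were read beside the 6 h difference. Of 5 tested macrophage markers, Cd68 and Csf1r were called higher in untrained 6 h than in sedentary muscle (417 of 11819 tested genes were). At 6 h both were lower with training than without (172 of 11819 tested genes were). The other tested macrophage markers were not called in either comparison. At 72 h Cd68 alone of all tested genes was called higher in untrained than in sedentary muscle. It was also lower with training than without at 72 h (22 of 11819 tested genes were). The summed level of the 6 listed macrophage markers was 28.2 to 30.5 TPM in sedentary, 24.8 to 50 TPM in untrained 6 h and 24.3 to 35.2 TPM in trained 6 h libraries, and none was at 0 in every library. Of 5 endothelial markers, Cldn5 was lower in untrained 6 h than in sedentary muscle (105 of 11819 tested genes were). The sums were 45 to 53.3 TPM in sedentary and 36 to 44.6 TPM in untrained 6 h libraries. Of 4 fibro-adipogenic markers, Col1a1 and Col3a1 were lower in trained 6 h than in sedentary muscle (170 of 11819 tested genes were). Only 1 of these calls remained without the shared library, and the sums were 220 to 252 TPM in trained 6 h and 226 to 265 TPM in sedentary libraries. Satellite cell and neutrophil markers summed to at most 0.872 and 1.56 TPM and none was tested. Limma called 0 of 8 muscle fibre and 0 of 5 red blood cell markers between the states at 6 h, with 1 and 0 at an unadjusted p below 0.05. The part of other cells in the chaperone results was not tested.

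Over the 20 distinct libraries, the 45 pairs of the 10 genes had Pearson r of log2(TPM + 0.5) from 0.592 (Hspa4 with Dnajb1) to 0.996 (the Hspa1 copies), with a median of 0.885. These values describe libraries that share their groups, and carry no test. Among 11818 other tested genes, those most like Hspa1b were Hspa1a (0.996), Gm20481 (0.994), Hsp90aa1 (0.981), Gm10501 (0.979) and Abra (0.968). For Hsp90aa1 they were Gm20481 (0.986), Hspa1a (0.983), Hspa1b (0.981), Hspe1 (0.971) and Nr4a3 (0.969). Bag3 had other neighbours: the small heat shock protein gene Hspb1 (0.963), Cltc (0.961), Gm9817 (0.958), Mknk2 (0.949) and Wdr61 (0.949).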

How the data were processed

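Bulk quadriceps RNA of 21 mouse libraries in 7 groups was analysed. Before the values were deposited as TPM, the authors prepared TruSeq RNA v2 libraries, aligned paired reads to GRCm39 with STAR 2.7.9 and quantified them with salmon 1.5.0. TPM correct for transcript length, scale every library to nearly the same total and keep no depth, so precision rests on the spread between libraries. Groups and replicate numbers came from the sample labels, and 0 columns were left without a sample. The labels do not say that each library is a separate mouse, and p-values measure the spread between these libraries.

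The 10 members and all gene lists were chosen with earlier results of these data known. TPM were transformed to log2(TPM + 0.5), and genes averaging 1 TPM or more were tested. R 4.3.3 and its package limma 3.58.1 fitted a mean per group with a variance trend on 14 residual degrees of freedom (12 without the shared library), Benjamini-Hochberg adjustment within each of 14 comparisons, and calls at adjusted p below 0.05 with a 1.5-fold difference. The procedure was tested on simulated data. All 10 members were named in every comparison, companion genes up to 4 per list by size among those called, and the 5 most alike genes for Hspa1b, Hsp90aa1 and Bag3. Hsf1, Hsf2, Cct3, Cct6a and some values short of the fold threshold were added after they were seen. Alternatives were other pseudocounts, filters, scalings, models, summed Hspa1 copies and leaving out each library. Positions came from GENCODE vM39, promoter sequences from RefSeq GRCm38.p6. Python 3.11.15 with matplotlib 3.10.9 drew the figures.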

Additional observations from a re-analysis of the deposited data

Results flagged for a closer look

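At 6 h, 7 chaperone genes differed with training by a test of the difference itself (limma, log2 scale, each lower in 3 of 3 trained libraries than in any untrained library): Hspa1a by -4.29, Hspa1b by -5.01, Hsph1 by -0.62, Dnaja1 by -1.83, Dnajb1 by -3.35, Hsp90aa1 by -1.97 and Bag3 by -0.87. The 0 h to 6 h change differed between the states by an interaction term for Hspa1a (-3.66), Hspa1b (-4.25) and Dnajb1 (-3.04). The shared 0 h library enters the last 3 values; without it they were -3.35, -3.87 and -2.89, with adjusted p = 0.0353, 0.0351 and 0.0066. Of all tested genes, 1.46% were called lower with training at 6 h, and 0.533% were called lower for the difference of the changes. With only the compared groups in the model, Dnaja1 (adjusted p = 0.167, limma), Hsp90aa1 (0.151), Bag3 (0.151) and Hsph1 (0.32) were not called at 6 h. For the difference of the changes, Hspa1a and Hspa1b were then not called either (both adjusted p = 0.112, limma). Reads of Hspa1a, Hspa1b and Gm20481 cannot be fully separated, and what each contributes was not tested.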

How the results depend on the processing

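Of 140 values (10 genes in 14 comparisons), 63 passed both thresholds. Over 1089 alternative values of these, 0 turned direction, 1042 stayed past the thresholds and 47 did not; 43 of the 63 passed in every alternative run. The counts of called genes that follow have no share over all tested genes under the same setting beside them. With only the compared groups in the model, fewer libraries were left to estimate the spread. Genes called were then 3 at trained 6 h against sedentary and 3 between the states at 6 h. For the difference of the 0 h to 6 h change, 1 gene was called. Leaving out each library in turn gave 3 to 5 genes for that difference, 6 to 8 between the states at 6 h, 8 to 10 at untrained 6 h and 5 to 6 at trained 6 h against sedentary. With the replicate number as a block, 7 genes were called between the states at 6 h and 9 at untrained 6 h, and 1 call was lost, that of Hspa4 from 6 h to 72 h in untrained muscle (adjusted p = 0.0612, limma). The numbers did not pair the libraries: over 62 same-numbered pairs the correlation of deviations ran from -0.115 to 0.134, and 4 were over 0.1. Scaling by median of ratios moved the median of all genes by -0.1228 at trained 0 h against sedentary and by 0.1445 from 0 h to 6 h in trained muscle. Rescaling without the mitochondrial genome and the top 10 genes moved it by -0.1643 and -0.1799 at untrained and trained 0 h, by 0.2003 from 0 h to 6 h in trained muscle, by 0.1087 between the states at 72 h and by 0.1049 for the difference of the changes. Hsp90ab1 then lay at 0.56 (untrained 0 h) and 0.50 (trained 0 h; 0.55 by median of ratios), under the fold threshold, and Hsph1 between the states at 6 h at -0.53 (-0.58 by median of ratios). Without a filter on expression Hspa4 at untrained 6 h had adjusted p = 0.0839 and Hsph1 between the states at 6 h 0.122. The cause of these changes was not tested. Depth is unknown, so no counting error can be given for genes near 1 TPM, such as Hspa1a, Hspa1b and Dnajb1 at rest.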
